A study of Homo sapiens with 8 samples.

Results

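The proteasome subunits and assembly factors were followed in 8 RNA-seq libraries from 2 prostate cancer lines. They were chosen by gene symbol alone, as the PSMA, PSMB, PSMC, PSMD, PSME, PSMF and PSMG genes of the standard particle, and the rule matched 43 of the 78691 rows of the count table, each symbol on 1 row. C4-2B is a castration-resistant prostate adenocarcinoma line, and it carried either an empty vector (control, n = 2) or a lentiviral vector that drives human MYCL from the EF1A promoter together with EGFP (MYCL, n = 2). NCI-H660 is a neuroendocrine prostate cancer line, and it carried either a non-targeting construct (shCtrl, n = 2) or shRNA against MYCL (shMYCL, n = 2). Both lines were grown in RPMI-1640 with fetal bovine serum, and the transduced C4-2B cells were selected with puromycin or by sorting. The knockdown vector is named as adenoviral in one of the sources and as stably expressed in another, so which construct was sequenced was not settled here. The labels call only the C4-2B control libraries biological replicates, so the p-values measure the spread between these libraries, which may be technical.

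The proteasome is the particle in which cells break down proteins marked with ubiquitin. Its 20S core is a barrel of alpha rings (PSMA genes) around beta rings (PSMB genes), and the beta rings hold the 3 catalytic subunits PSMB5, PSMB6 and PSMB7. A 19S regulatory particle sits on the barrel end, where its ATPases (PSMC genes) unfold the substrate and its other subunits (most PSMD genes) bind, deubiquitinate and position it. The PSME genes encode alternative activators of the core, PSMF1 an inhibitor, and the PSMG genes with PSMD5, PSMD9 and PSMD10 encode chaperones of assembly that are not part of the finished particle. When proteasome activity falls short, the transcription factor encoded by NFE2L1 is processed and raises proteasome genes through antioxidant response elements (ARE) in their promoters. In lymphoid and inflamed tissue the immunoproteasome subunits PSMB8, PSMB9 and PSMB10 replace the catalytic subunits.

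The promoters of the 4 genes that passed the test in both lines are shown here, because the same genes moved in opposite directions in the 2 experiments. They are RefSeq windows on GRCh38.p14, printed 5′ to 3′ on the gene's strand from 250 to 51 bases before the RefSeq start, with motif matches in capitals. The regions were chr11:47426490-47426689 (minus strand) for PSMC3, chr2:231056617-231056816 (plus) for PSMD1, chr17:67366628-67366827 (minus) for PSMD12 and chr14:24135944-24136143 (plus) for PSME1.
PSMC3: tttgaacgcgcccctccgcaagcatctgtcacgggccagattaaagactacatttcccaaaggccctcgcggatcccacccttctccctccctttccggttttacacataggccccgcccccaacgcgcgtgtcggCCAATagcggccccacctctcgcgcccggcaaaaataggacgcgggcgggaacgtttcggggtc
PSMD1: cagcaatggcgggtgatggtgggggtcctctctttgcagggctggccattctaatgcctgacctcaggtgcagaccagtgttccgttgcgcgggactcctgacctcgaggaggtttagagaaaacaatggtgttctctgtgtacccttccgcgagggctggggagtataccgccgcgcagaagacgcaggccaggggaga
PSMD12: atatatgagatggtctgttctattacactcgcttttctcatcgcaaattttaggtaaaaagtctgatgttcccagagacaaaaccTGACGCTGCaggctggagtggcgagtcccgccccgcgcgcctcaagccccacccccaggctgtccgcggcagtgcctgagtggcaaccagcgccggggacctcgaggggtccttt
PSME1: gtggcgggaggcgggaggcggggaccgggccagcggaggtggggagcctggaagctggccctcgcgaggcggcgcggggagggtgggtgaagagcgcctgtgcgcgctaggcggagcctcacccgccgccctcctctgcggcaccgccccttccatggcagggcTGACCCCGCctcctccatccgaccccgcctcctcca
The motifs searched on both strands of the 250 bases before the start were the E-box bound by MYC proteins (CACGTG), the ARE core (TGACNNNGC), the CCAAT box (CCAAT) and the interferon response element core (GAAANNGAAA). The capitals mark a CCAAT box 114 bases before the start of PSMC3, and ARE cores 165 bases before that of PSMD12 and 86 bases before that of PSME1, while the window of PSMD1 held none of these letters. A window was given for 37 of the 43 genes. The ARE core lay in 11 of them (29.7%), against 10.9% of all 35116 promoters of the same length, and the CCAAT box in 17 (45.9%), against 32%. The E-box lay in 3 (8.11%, PSMB3, PSMD9 and PSME3), against 6.34%, and the interferon element core in 3 (8.11%, PSMB4, PSME2 and PSMG4), against 3.02%. These are matches of letters and were not tested for binding.

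Library totals ranged from 15177071 to 32344170 counts, and the 43 genes made up 0.528% to 0.731% of each total. All 43 passed the filter on low counts, and the lowest count of any of them in any library was 105. MYCL itself rose from 371 and 320 counts in C4-2B control to 65524 and 70253 in the MYCL libraries, and it fell from 1863 and 1602 counts in shCtrl to 165 and 198 in shMYCL (edgeR, adjusted p = 4.29e-09). Of the luminal markers, KLK2, KLK3, HOXB13 and FOLH1 held 0 or 1 count in NCI-H660. KLK3, the most abundant of these in C4-2B, was at 1234 and 1233 CPM (counts scaled to library size) in C4-2B control and 872 and 847 CPM with MYCL, 0.697 of the control by edgeR (adjusted p = 0.000558). The 6 neuroendocrine markers summed to 10.9 to 12.9 CPM in C4-2B, 1580 and 1460 in shCtrl and 1080 and 1150 in shMYCL. Of the markers of other cell types, DCN and PTPRC were at 0 or 1 count in every library, and COL1A2 was at 0 in C4-2B. In NCI-H660 COL1A2 went from 1815 and 1938 counts to 1032 and 1004, and its part in the results below was not tested. In bulk libraries such as these, fewer cells of a type and less RNA per cell cannot be told apart. The 3 fibroblast genes summed to 108 and 107 CPM in shCtrl and 68.7 and 64.4 in shMYCL, and nearly all of this was COL1A2. Of the other fibroblast genes, DCN held 0 counts in every library, and LUM held 26 and 34 in shCtrl and 11 and 15 in shMYCL. The 3 leukocyte genes summed to at most 0.639 CPM in any library, and the 3 endothelial genes to between 2.34 and 9.34.

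The level of each subunit was compared per length as TPM, the deposited length-scaled values. The ratio of count to TPM within a gene was not the same in every library, so no single fixed length lies behind these values. For PSMC2 its log2, relative to the library median, was -0.43 and -0.20 in the 2 C4-2B MYCL libraries. In C4-2B control the mean TPM ran from 23.6 for PSMG4, a chaperone of core assembly, to 444.9 for the core subunit PSMA4. Core subunits held the first 7 places of the order in C4-2B control, led by PSMA4, PSMA7 (412 TPM) and PSMA6 (395.3 TPM), while the 4 lowest were PSME4, PSMG3, PSMD5 and PSMG4. In NCI-H660 shCtrl the highest were PSMB1 (579.8 TPM), PSMA6 (570.7 TPM) and PSMC1 (561.8 TPM), and PSMG4 was again the lowest at 15.9 TPM. PSMB2, a core subunit, had the lowest TPM of the core in both, at 49.8 ± 2.2 TPM in C4-2B control (SD, n = 2) and 92.1 ± 3.5 TPM in shCtrl. Its ratio of count to TPM was also the highest of the core, at 0.16 to 0.56 (log2, relative to the library median) against -2.34 to -1.30 for the other 13, so its low TPM goes with a large length divisor. Before division by length it was at 128 and 126 CPM in C4-2B control.

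**Figure D1:**
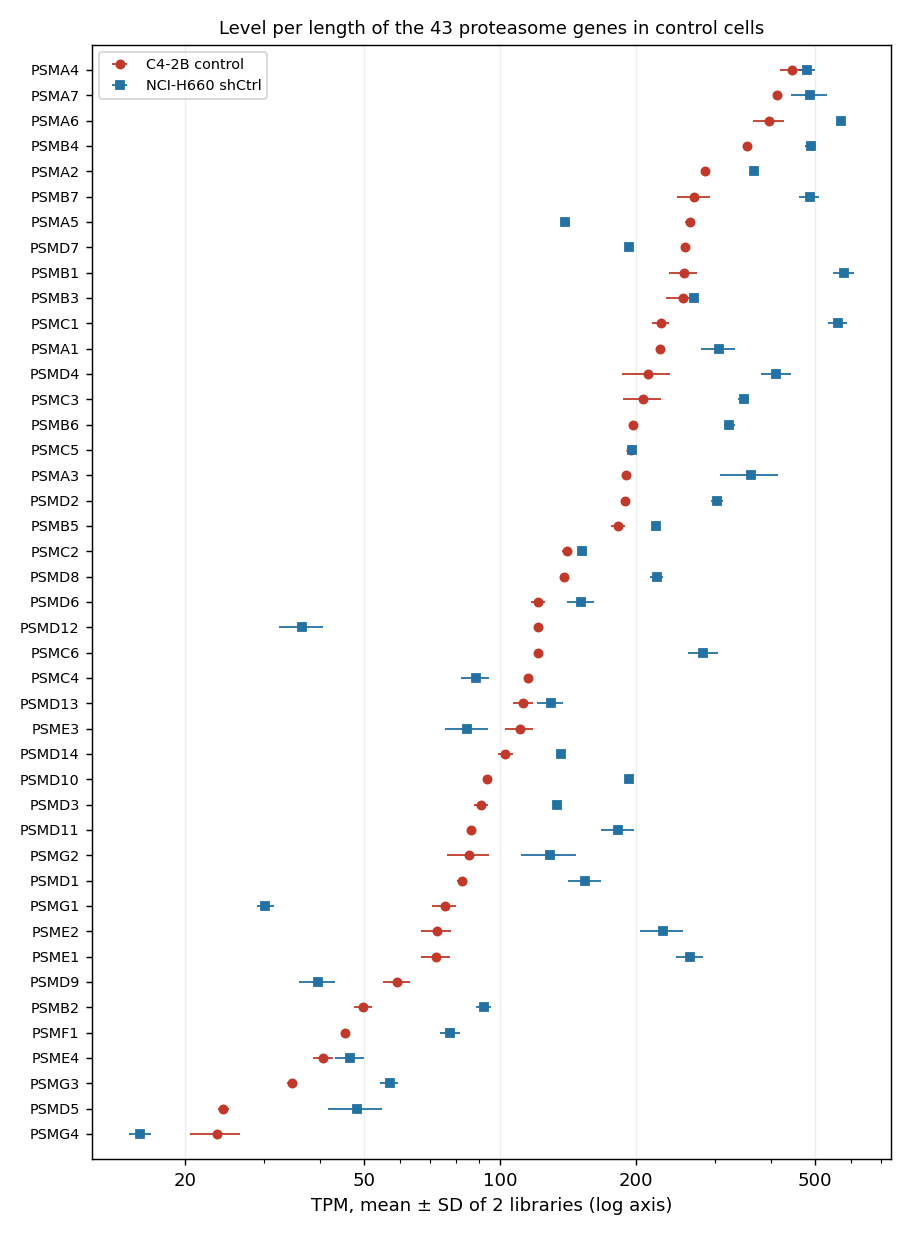
TPM (log axis) of the 43 genes in C4-2B control (circles) and NCI-H660 shCtrl (squares), as mean ± SD of 2 libraries, ordered by the level in C4-2B control. Most squares lie to the right of the circles on this scale, and PSMD12, PSMG1 and PSMA5 are the clearest of those that lie to the left.

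The first question was what overexpression of MYCL did to these genes in C4-2B cells. Of the 43 genes, 18 were lower and 1 was higher in the MYCL libraries at an adjusted p under 0.05 (edgeR's quasi-likelihood test, Benjamini-Hochberg over 16866 genes), and 24 did not pass. Over all genes tested 17.4% were lower and 17.6% higher by the same test, and among the 8630 genes at least as abundant as the least abundant of the 43, 27.6% were lower and 19.4% higher. The median log2 fold change of the 43 genes was -0.15, against -0.0017 for all genes tested and -0.06 for the abundant ones. The calls that reached 0.5 on the log2 scale were PSMD1, PSMD2, PSMD11, PSME3 and PSMG1, lower, and PSME1, higher, against 8.12% lower and 11.8% higher over all genes. Without C4-2B control replicate 1 the count was 11, of which 10 lower and 1 higher, and with any of the other 3 libraries left out it was between 15 and 24.

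The calls lay mostly in the 19S regulatory particle. Of its 17 subunits 12 fell and none rose, with a median log2 fold change of -0.36, whereas of the 14 subunits of the 20S core 2 fell and none rose, with a median of -0.13. The count for the core was 8 on log2(TPM + 1) and on log2(TPM + 0.1), 5 on log2(TPM + 1) without the filter, 4 with at least 10 counts in every library, 6 without MYCL replicate 2, 1 without control replicate 2 and 0 without control replicate 1, and its median ran from -0.055 without MYCL replicate 1 to -0.25 on the TPM scale. For the 19S particle DESeq2 also counted 12 lower and 0 higher of the 17, and at an unadjusted p under 0.05 edgeR counted 12 and 1. With no filter on low counts, or with at least 10 counts in every library, edgeR counted 12 lower and 1 higher. On log2(TPM + 1) limma counted 13 lower and 0 higher, and 11 and 0 without the filter. The difference between those medians, -0.24, lay between -0.19 and -0.27 over the alternative settings, and it was not given a test of its own. On the TPM scale the 19S subunits summed to 2577 and 2474 in control and to 1900 and 1881 in MYCL libraries, and the core subunits to 3816 and 3750 in control and to 3195 and 3216. The median of all genes on log2(TPM + 1) itself moved by -0.14 in this comparison, and the ratio of the 2 sums does not depend on that shift. The ratio of 19S to 20S went from 0.675 and 0.660 to 0.595 and 0.585, so both MYCL libraries lay below both controls. Without C4-2B control replicate 1 fewer genes were called lower, both among the 17 subunits and over all genes. The medians were then -0.32 for the 19S particle and -0.13 for the core.

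Levels of single genes are given below as CPM with TMM normalization within each line, so a CPM of one line is not to be set against that of the other. Among the non-ATPase subunits 7 of 11 fell. PSMD1, a scaffold of the 19S base that binds ubiquitin receptors, went from 218 and 209 CPM in control to 134 and 137 CPM in MYCL libraries. Both MYCL libraries lay well below both controls, a log2 fold change of -0.66 ± 0.07 (SE, edgeR adjusted p = 0.000223). PSMD2, the other large scaffold of the base, went from 425 and 421 CPM to 272 and 290 CPM, a log2 fold change of -0.59 (adjusted p = 0.000392). PSMD11, a subunit of the lid, went from 134 and 128 CPM to 85.0 and 92.4 CPM, a log2 fold change of -0.57 (adjusted p = 0.000712). In each of these genes the groups stood apart. The other calls were PSMD3, PSMD6, PSMD12 and PSMD14, all of the lid, with log2 fold changes from -0.26 for PSMD14, the deubiquitinase, to -0.48 for PSMD12. PSMD14 lost its call with one or the other control library left out, or without MYCL replicate 1. The ubiquitin receptor PSMD4 (-0.10), PSMD7 (0.05), PSMD8 (0.25) and PSMD13 (-0.04) did not pass.

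Of the 6 ATPases, 5 fell, and PSMC4 (log2 fold change -0.13, adjusted p = 0.286) did not pass. PSMC6 went from 135 and 137 CPM in control to 100 and 97.2 CPM in MYCL libraries, a log2 fold change of -0.46 ± 0.07 (edgeR adjusted p = 0.00129). PSMC3 went from 215 and 189 CPM to 147 and 155 CPM, with both MYCL libraries below both controls, a log2 fold change of -0.42 (adjusted p = 0.00419). PSMC1, PSMC2 and PSMC5 had log2 fold changes of -0.36, -0.28 and -0.35. Without C4-2B control replicate 1 the adjusted p was 0.0511 for PSMC3, 0.0684 for PSMC1, 0.111 for PSMC2 and 0.0652 for PSMC5, so these calls were lost. PSMC1 shares 76.2% of its exon bases with a gene on the other strand, NRDE2, and whether the counting used strand is not given in the sources used here.

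In the 20S core the 2 calls were PSMB5 and PSMA4. PSMB5, the chymotrypsin-like catalytic subunit, went from 115 and 120 CPM in control to 95.6 and 101 CPM in MYCL libraries, a log2 fold change of -0.26 ± 0.07 (edgeR adjusted p = 0.0218), and its call was lost with one or the other control library left out. The other catalytic subunits did not pass: PSMB6, the caspase-like one, was at 92.5 and 90.5 CPM in control and 79.9 and 89.5 CPM with MYCL. PSMB7, the trypsin-like one, was at 175 and 154 CPM in control and 139 and 160 CPM with MYCL, with the groups overlapping. The core subunit PSMA4 went from 351 and 314 CPM to 253 and 257 CPM, a log2 fold change of -0.38 (adjusted p = 0.00533, and 0.083 without C4-2B control replicate 1). The other core subunits had log2 fold changes between -0.20 and 0.09 and did not pass.

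The activators moved in both directions. PSME1 is the alpha subunit of the activator PA28 that interferon raises and that opens the core for peptides. By the edgeR test above it was the only 1 of the 43 genes called higher. With no filter on low counts, or with at least 10 counts in every library, 2 of the 43 were called higher. PSME1 went from 40.3 and 44.2 CPM in control to 68.8 and 68.1 CPM in MYCL libraries, a log2 fold change of 0.70 ± 0.08 (edgeR adjusted p = 0.000361). PSME2, the beta subunit that joins it in the same ring, was at 32 and 34.8 CPM in control and 34.6 and 40.4 CPM with MYCL, and did not pass (log2 fold change 0.17, adjusted p = 0.229). PSME3, the nuclear PA28 gamma that acts without ubiquitin, fell from 261 and 240 CPM to 157 and 174 CPM, a log2 fold change of -0.60 (adjusted p = 0.000759). PSME4, the large nuclear activator PA200, fell from 221 and 206 CPM to 168 and 171 CPM, a log2 fold change of -0.34 (adjusted p = 0.00663, and 0.0948 without control replicate 1). The ratio of PSME1 to PSME3 in TPM was 0.588 and 0.724 in control and 1.82 and 1.61 with MYCL, so their order turned around on that scale. In CPM, PSME3 stayed above PSME1 in every C4-2B library. The ratio of count to TPM (log2, relative to the library median) was larger for PSME3. It was 0.19 and 0.22 in control and 0.31 in both MYCL libraries, against -1.75 to -1.735 for PSME1. PSMF1 had a log2 fold change of 0.02.

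Among the assembly factors, PSMG1, which pairs with PSMG2 to build the alpha ring, fell from 52.6 and 48.0 CPM in control to 34.2 and 34.1 CPM in MYCL libraries (log2 fold change -0.56, edgeR adjusted p = 0.0014). Its partner PSMG2 did not pass, at 49.8 and 58.3 CPM in control and 50.7 and 55.5 CPM with MYCL. PSMG3 and PSMG4 did not pass either. Of the 3 chaperones of the 19S base, PSMD5 fell (log2 fold change -0.33, adjusted p = 0.00896, and 0.0707 without control replicate 2), while PSMD9 (-0.14) and PSMD10 (-0.08) did not pass.

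**Figure D2:**
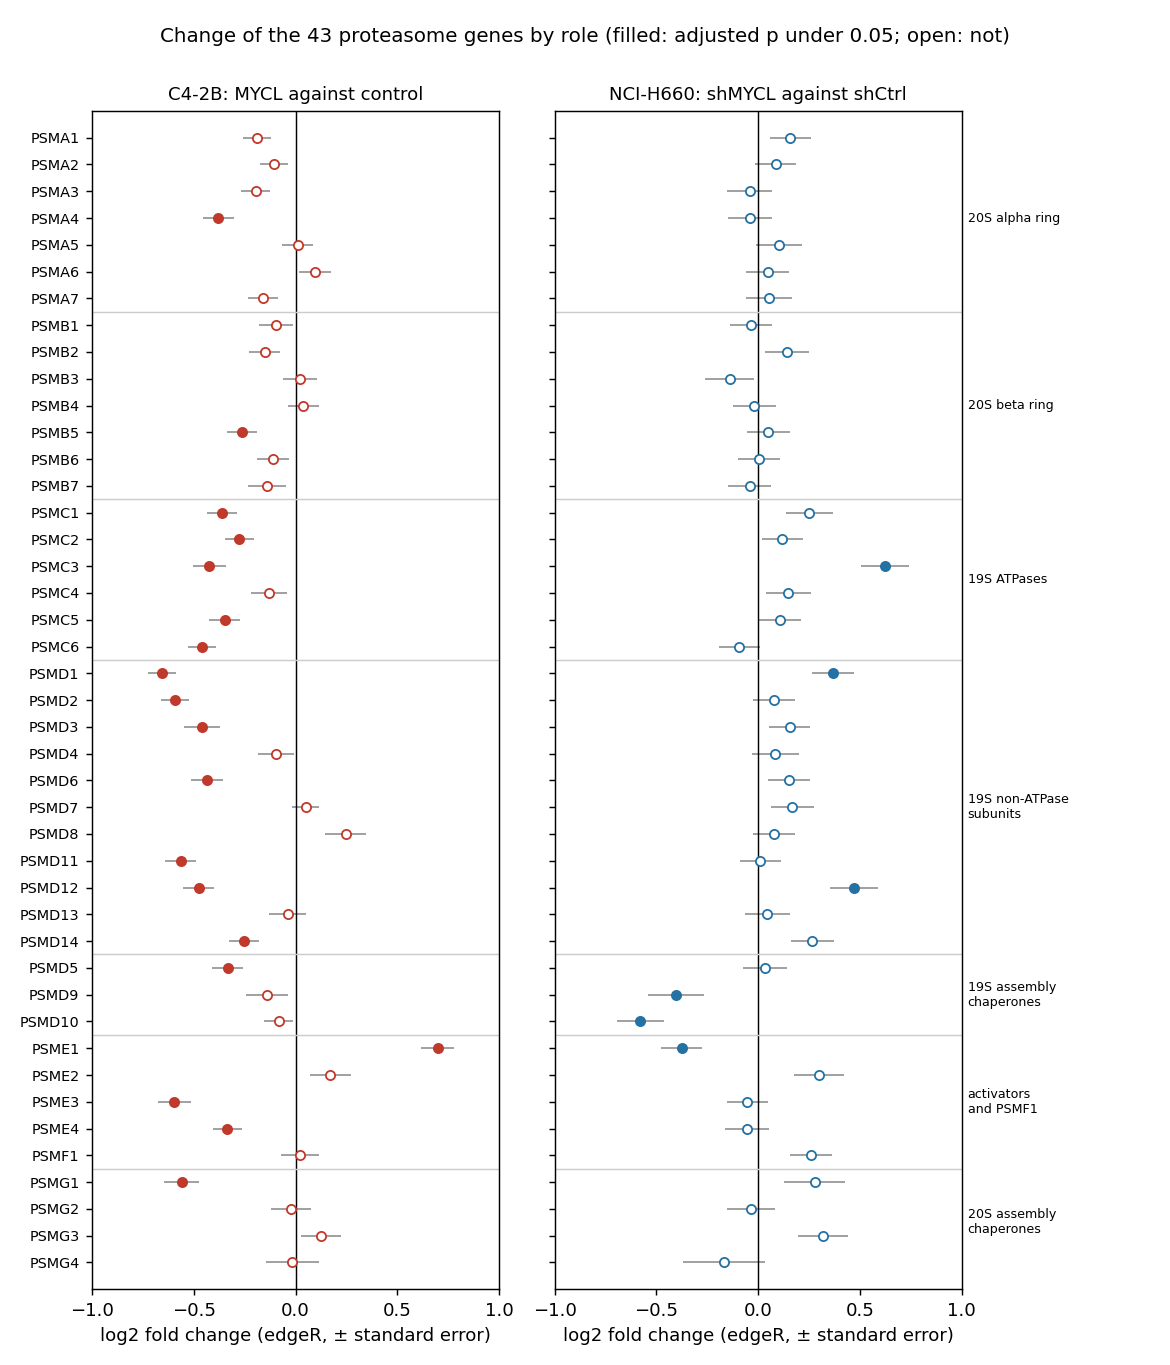
Log2 fold change with its standard error for each of the 43 genes, by role, in C4-2B (MYCL against control, left) and NCI-H660 (shMYCL against shCtrl, right). Filled points passed an adjusted p of 0.05. On the left 12 of the 17 subunits of the 19S particle are filled and below 0, and on the right 6 points in all are filled.

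The second question was what loss of MYCL did in NCI-H660 cells, where MYCL is expressed without a vector. Of the 43 genes, 3 were higher (PSMC3, PSMD12 and PSMD1) and 3 lower (PSMD10, PSMD9 and PSME1) in shMYCL, and 37 did not pass at an adjusted p under 0.05 (edgeR, 16980 genes). Over all genes tested 12% were higher and 12.7% lower, and among the 11223 genes at least as abundant as the least abundant of the 43, 14.8% were higher and 14.4% lower. The share of the 43 that was called was thus below that of all genes. Of these PSMC3, higher, and PSMD10, lower, reached 0.5 on the log2 scale, against 7.18% higher and 8.99% lower over all genes. The median log2 fold change of the 43 genes was 0.077, against -0.0029 for all genes and 0.021 for the abundant ones.

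In the 19S particle 3 of 17 subunits rose and none fell, with a median log2 fold change of 0.15 and 16 of 17 values above 0. Of all genes at least as abundant as the least abundant of the 43, 14.8% rose, and their median was 0.021. The 17 subunits were measured in the same libraries with the same normalization, so their signs are not independent. Without shMYCL replicate 2 fewer genes passed, both among the 17 and over all genes. The median of the 17 was then 0.077, against 0.051 for the core. PSMC3 went from 228 and 254 CPM in shCtrl to 331 and 411 CPM in shMYCL, a log2 fold change of 0.62 ± 0.12 (SE, edgeR adjusted p = 0.00141). Both shMYCL libraries lay above both controls, although they differed among themselves. PSMD12 went from 52.5 and 42.9 CPM to 65.9 and 66.2 CPM, a log2 fold change of 0.47 (adjusted p = 0.00936). PSMD1 went from 302 and 285 CPM to 369 and 389 CPM, a log2 fold change of 0.37 (adjusted p = 0.0155). By limma on each TPM scale PSMD1 did not pass (adjusted p = 0.0535 to 0.162). The call for PSMD1 was lost with one or the other shMYCL library left out (adjusted p = 0.051 and 0.148), and that for PSMD12 without shMYCL replicate 2 (0.0536). The other 14 subunits did not pass, among them PSMC6 (-0.09), the one value below 0. The TPM ratio of 19S to 20S was 0.714 and 0.711 in shCtrl and 0.755 and 0.883 in shMYCL, with both shMYCL libraries above both controls and far apart from each other. In this ratio of sums abundant subunits weigh most. PSMC3 was at 341 and 354 TPM in shCtrl and 477 and 601 in shMYCL. PSMC1, which did not pass (edgeR adjusted p = 0.129), was at 581 and 542 TPM and at 601 and 759. The median TPM of the 19S subunits was 194 and 172 in shCtrl and 195 and 205 in shMYCL.

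Of the 14 core subunits 0 passed in NCI-H660 in edgeR or in DESeq2, and 0 had an unadjusted p under 0.05 in edgeR. PSMB5 was at 99.3 and 108 CPM in shCtrl and 111 and 103 CPM in shMYCL. PSMB6 was at 108 and 112 CPM in shCtrl and 115 and 105 CPM in shMYCL. PSMB7 was at 203 and 234 CPM in shCtrl and 208 and 216 CPM in shMYCL. For all 3 catalytic subunits the groups overlapped.

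Each of the 3 genes that fell in NCI-H660 acts outside the finished standard particle. PSMD10, the oncoprotein gankyrin, which chaperones the 19S base and also binds the retinoblastoma protein, went from 125 and 132 CPM in shCtrl to 77.7 and 94.6 CPM in shMYCL. Its log2 fold change was -0.58 ± 0.11 (edgeR adjusted p = 0.00178, and 0.0691 without shMYCL replicate 1). PSMD9, another chaperone of the base, went from 19.9 and 22.1 CPM to 16.5 and 15.3 CPM, a log2 fold change of -0.40 (adjusted p = 0.0448, and 0.148 in DESeq2). The call for PSMD9 was lost in 9 of 15 alternatives. Among these were edgeR with no filter on low counts (adjusted p = 0.06) and limma on each TPM scale (0.151 to 0.236). PSME1 went from 115 and 112 CPM to 87.6 and 86.6 CPM, a log2 fold change of -0.38 (adjusted p = 0.0136, and 0.132 and 0.143 without one or the other shMYCL library). By limma PSME1 did not pass on log2(TPM + 1) with the filter (adjusted p = 0.067) or without it (0.154), or on log2(TPM + 0.1) (0.0709). Its partner PSME2 did not pass, at 67.6 and 86.3 CPM in shCtrl and 89.1 and 100 CPM in shMYCL (log2 fold change 0.30, edgeR adjusted p = 0.0879). The TPM ratio of PSME1 to PSME2 was 1.30 and 1.01 in shCtrl and 0.751 and 0.661 in shMYCL.

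**Figure D3:**
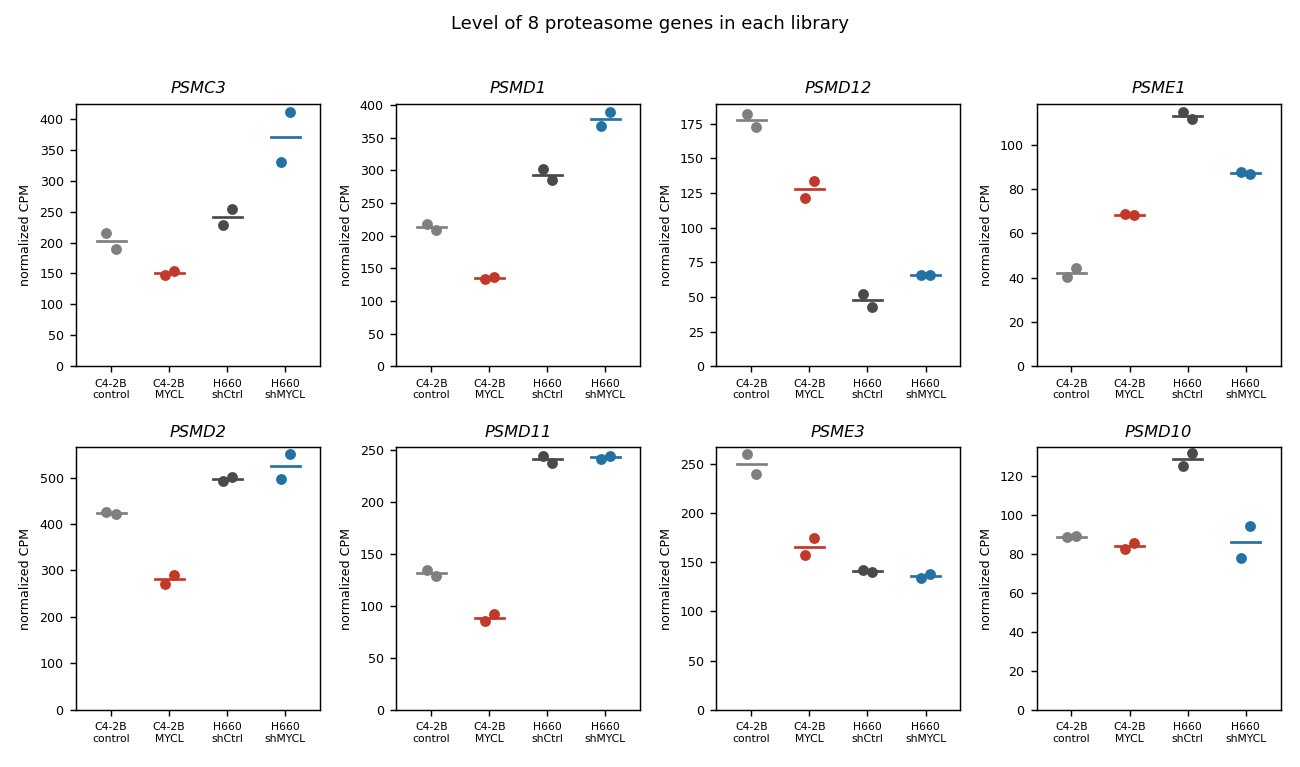
Normalized CPM of 8 proteasome genes in each of the 8 libraries (points) with the group mean (line). CPM was normalized within each line, so heights compare within a line. PSMC3, PSMD1 and PSMD12 are lower with MYCL in C4-2B and higher with shMYCL in NCI-H660, PSME1 shows the opposite, and PSMD2, PSMD11 and PSME3 differ in C4-2B alone by the test of each line.

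The 4 genes that passed in both lines, PSMC3, PSMD1, PSMD12 and PSME1, all moved in opposite directions on gain and on loss of MYCL. By limma on log2(TPM + 1), PSMD1 and PSME1 did not pass in NCI-H660 (adjusted p = 0.0702 and 0.067). Over all 43 genes, 22 had a value below 0 in C4-2B and above 0 in NCI-H660, 3 the reverse, 11 were below 0 in both and 7 above 0 in both. The share with opposite signs was 58.1%, against 56% of the 14212 genes tested in both lines. Of the 1538 genes called in both lines, 1023 had opposite signs.

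Whether high against low MYCL had the same effect in both lines was tested as the C4-2B change minus the NCI-H660 change, the latter taken as shCtrl against shMYCL. In 8 of the 43 genes the difference was below 0 and in none above 0 at an adjusted p under 0.05 (edgeR, all 8 libraries, 19605 genes), against 9.63% below and 10.6% above over all genes. DESeq2 called 7 of the 43, all below 0. At an unadjusted p under 0.05 edgeR counted 12 below 0 and 4 above, where the lowest p-values were those of PSMG3 (difference 0.44, adjusted p = 0.0535) and PSME2 (0.47, 0.082). The 8 genes were PSMD10 (-0.67), PSME3 (-0.65), PSMD11 (-0.56), PSMC6 (-0.56), PSMD9 (-0.55), PSMD2 (-0.52), PSMA4 (-0.42) and PSME4 (-0.39). PSMD2, PSMD11, PSMC6, PSME3, PSMA4 and PSME4 passed the test in C4-2B and did not pass in NCI-H660. In NCI-H660, PSMD2 was at 493 and 501 CPM in shCtrl and 498 and 551 CPM in shMYCL, and PSMD11 at 245 and 237 CPM and 242 and 244 CPM. PSMC6 was at 237 and 227 CPM in shCtrl and 215 and 220 CPM in shMYCL, and PSME3 at 143 and 140 CPM and 134 and 138 CPM. PSMA4 was at 266 and 269 CPM in shCtrl and 240 and 281 CPM in shMYCL, and PSME4 at 194 and 180 CPM and 192 and 169 CPM, with the groups overlapping in both genes. PSMD10 and PSMD9 were the reverse case, with C4-2B levels of 89.0 and 89.1 CPM in control and 82.4 and 85.6 CPM with MYCL for PSMD10, and of 43.3 and 38.4 CPM and 34.5 and 39.8 CPM for PSMD9. The calls of PSMA4, PSMD9 and PSME4 had adjusted p-values of 0.0413, 0.0401 and 0.046, and each was lost under several alternatives, with the values of PSMA4 running up to 0.19 without C4-2B control replicate 1.

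The level of the genes was also compared between the lines, as NCI-H660 shCtrl against C4-2B control, where line, vector and culture cannot be told apart. Of the 43 genes 18 were lower and 14 higher in NCI-H660 at an adjusted p under 0.05 (edgeR, 19605 genes), against 37.3% lower and 40.5% higher over all genes. The split depended on the scaling. By limma on log2(TPM + 1), with an all-gene median of 0.53 against 0.033 in the count fit, 8 of the 43 were lower and 29 higher. Over all 17847 genes 23.2% were lower on that scale, and 69.8% of all calls were higher. With that scale centred on each library's median, an alternative added after the data were seen, 21 of the 43 were lower and 7 higher. There 43.8% of all genes were lower, and 41.6% of all calls were higher. Named here, after their values were seen, are those of the 43 that differed by 1 or more on the log2 scale. Their directions were the same on TPM. PSMD12 was lowest against C4-2B, by -2.06, with 122 TPM in C4-2B control and 36.5 TPM in shCtrl. PSMG1 differed by -1.94 (75.4 against 30.2 TPM) and PSMA5, a core subunit, by -1.49 (264 against 140 TPM). PSMD9 (-1.12) and PSMG4 (-1.09) were lower too. Both PA28 subunits of the interferon-responsive ring were higher in NCI-H660, PSME1 by 1.26 (72.2 against 264 TPM) and PSME2 by 1.05 (72.4 against 230 TPM).

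The immunoproteasome subunits, which lie outside the 43, were read in the same way, and 2 of the 3 were close to absent from C4-2B. PSMB8 had 4 and 4 counts in C4-2B control and 25 and 12 in MYCL libraries, against 781 and 1030 in shCtrl and 636 and 669 in shMYCL. In C4-2B its log2 fold change was 2.79 ± 0.65 (SE, edgeR adjusted p = 0.01), with adjusted p-values of 0.0764 without control replicate 1 and 0.14 without MYCL replicate 1. PSMB9 had 3 and 0 counts in C4-2B control and 11 and 12 in MYCL libraries (adjusted p = 0.0165, and 0.136 without control replicate 2), with no fold given because the control is at or under 3 counts, the number that a count of 0 allows. In NCI-H660 PSMB9 had 329 and 388 counts in shCtrl and 246 and 250 in shMYCL, and neither gene passed there (adjusted p = 0.121 and 0.0911). PSMB10 did not pass in either line, at 6.88 to 8.92 CPM in C4-2B and 5.43 to 6.55 CPM in NCI-H660. The subunits of thymus and testis, PSMB11 and PSMA8, were at 0 counts in every library.

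A list of 43 related genes was read beside the subunits, and 41 of them could be tested. In C4-2B 10 were lower and 11 higher, against 17.4% lower and 17.6% higher over all genes. In NCI-H660 7 were lower and 4 higher, against 12.7% and 12% over all genes. Of the genes that control transcription of the subunits, NFE2L1 rose in C4-2B from 168 and 173 CPM in control to 234 and 284 CPM in MYCL libraries (log2 fold change 0.60, edgeR adjusted p = 0.00151). It fell in NCI-H660 from 268 and 300 CPM to 215 and 224 CPM (log2 fold change -0.37, edgeR adjusted p = 0.0167). That call was lost with one or the other shMYCL library left out (log2 fold change -0.33 and -0.40). It was also lost by limma on each TPM scale (adjusted p = 0.0768 to 0.153).

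DDI2, the protease that cleaves the NFE2L1 protein into its active form, was lower in both. It went from 140 and 143 CPM to 113 and 96.6 CPM in C4-2B (log2 fold change -0.43, edgeR adjusted p = 0.00524) and from 124 and 109 CPM to 75.1 and 70.1 CPM in NCI-H660 (-0.68, 0.000365). NGLY1, the glycanase that prepares the same protein, fell in NCI-H660 by 0.44 on the log2 scale (adjusted p = 0.0117). Its call was lost with one or the other shMYCL library left out (0.194 and 0.0506). Among the partners and competitors of NFE2L1 on DNA, MAFF rose in C4-2B from 2.24 and 1.89 CPM to 11.1 and 8.18 CPM (log2 fold change 2.21, adjusted p = 0.000273). MAFG rose by 0.36 in C4-2B and by 0.51 in NCI-H660 on the log2 scale (adjusted p = 0.00988 and 0.00225). BACH1 fell in NCI-H660 by 0.58 (adjusted p = 0.00316), a call lost without shMYCL replicate 1 (0.0564) and on each TPM scale (0.0539 to 0.173).

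**Figure D4:**
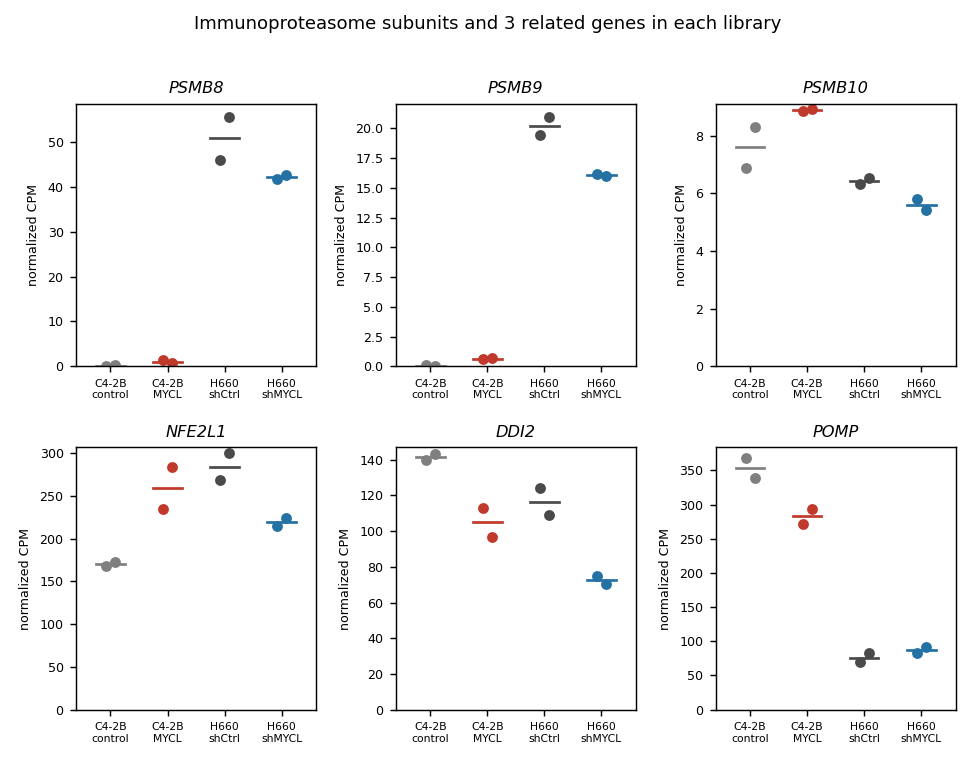
Normalized CPM of the immunoproteasome subunits PSMB8, PSMB9 and PSMB10 and of NFE2L1, DDI2 and POMP in each library (points) with the group mean (line). CPM was normalized within each line, so heights compare within a line. NFE2L1 rises with MYCL in C4-2B and falls with shMYCL in NCI-H660, while DDI2 falls in both. The fall of NFE2L1 did not pass on any TPM scale.

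Among the factors that act on substrates at the particle or bring them to it, USP14, the deubiquitinase that docks on the 19S base, fell in C4-2B by 0.49 (edgeR adjusted p = 0.0011), and the shuttle receptor UBQLN4 by 0.51 (adjusted p = 0.00297). UFD1, a cofactor of the unfoldase VCP, fell by 0.51 in C4-2B and rose by 0.55 in NCI-H660 (adjusted p = 0.00565 and 0.00213). ZFAND2A, a stress-induced factor that binds the particle, rose in both lines, by 0.95 and 0.65 (adjusted p = 0.00162 and 0.00281). AKIRIN2, which carries proteasomes into the nucleus, fell in NCI-H660 from 115 and 102 CPM to 69.5 and 76.5 CPM (log2 fold change -0.57, adjusted p = 0.00157). POMP, the maturation factor of the core, was singled out after its values were seen: it fell in C4-2B by 0.32 (adjusted p = 0.0117) and its log2 difference of shCtrl from C4-2B control was -2.38, with 208 and 232 TPM against 791 and 769 TPM.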

How the data were processed

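The authors deposited an estimated count per gene and library, without normalization, and TPM values, for which the study names Ensembl gene lengths. The ratio of count to TPM varied between libraries within a gene, so the lengths used by the authors were not 1 fixed value per gene. Libraries were poly(A)-selected, paired-end Illumina, and the build was hg38 per the submitters' processing notes. The aligner and the counter are not given in the sources used here. There were 78691 rows of counts and 65535 of TPM, with all 43 genes in both. Counts were rounded before testing, since 22.4% of non-zero values lay more than 0.01 from a whole number.

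Genes passing filterByExpr were TMM-normalized and tested in edgeR 4.0.16 (R 4.3.3) with the quasi-likelihood test, each line on its own, and with all 8 libraries for the difference between lines and the comparison of lines. A gene was called at an adjusted p under 0.05 over all genes tested, and also counted where the change reached 0.5 on the log2 scale. Alternatives were DESeq2 1.42.0, limma 3.58.1 on log2(TPM + 1) or log2(TPM + 0.1), with the filter of 1 TPM in 2 libraries or none, other size factors and filters, a fit of all 4 groups, a replicate block and leaving out each library. Added after the data were seen were TPM centred on each library's median and the background of abundant genes. The test was tested on simulated data.

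Values in every library are given for genes called with that fold change, the 6 of lowest adjusted p in each line, the catalytic subunits and those called in the difference between lines. Of the related genes, those of lowest adjusted p in each line, up to 8, are named. Some genes are not reported here. The members and lists were chosen with earlier results of these data known. Exon overlaps came from GENCODE 44 and promoters from RefSeq (GRCh38.p14). Of the 43 genes, 4 shared over 10% of exon bases with a gene on the same strand and 5 with one on the other strand. Pseudogene rows held at most 1.13% of the counts of their parent gene.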

Additional observations from a re-analysis of the deposited data

Results flagged for a closer look

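The effect of high against low MYCL differed between the lines, by the interaction test in edgeR, in 8 of the 43 genes. The difference, C4-2B minus NCI-H660 on the log2 scale, was -0.67 for PSMD10, -0.65 for PSME3, -0.56 for PSMD11, -0.56 for PSMC6, -0.55 for PSMD9, -0.52 for PSMD2, -0.42 for PSMA4 and -0.39 for PSME4. What these differences come from was not tested, and the vectors and the size of the MYCL change differed between the lines as well.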

How the results depend on the processing

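Of 60 single-gene changes that passed the test, MYCL and related genes included, 27 stayed past it in every alternative, 33 lost the call in at least 1 and 0 turned direction. Counting only calls that reached 0.5 on the log2 scale, the number of the 43 genes was 6 in C4-2B, 2 in NCI-H660 and 16 between the control lines. By adjusted p alone 6 of the 43 genes were called in NCI-H660, against 3 on log2(TPM + 1) and on log2(TPM + 0.1) with the filter and 0 on log2(TPM + 1) without it, where limma called 1 gene of all 29413. On the centred TPM added after the data were seen, 4 genes differed between the lines in the effect of MYCL. The median of the 43 genes in C4-2B was -0.286 on log2(TPM + 1), with or without the filter, and -0.289 on log2(TPM + 0.1), and the all-gene median there was -0.142 and -0.162 with the filter.

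With each library left out in turn, a fit in which the lone sample is assumed to vary like the other group, the calls ran from 11 to 24 in C4-2B, 2 to 7 in NCI-H660, 5 to 8 for the difference between lines and 26 to 32 between the control lines. The lowest counts were 11 without C4-2B control replicate 1, 2 without NCI-H660 shMYCL replicate 2 (3 without replicate 1), and 5 without C4-2B control replicate 1 or 2. The medians ran from -0.231 to -0.0849 in C4-2B and from 0.0605 to 0.109 in NCI-H660. Turns of sign occurred in 3 genes that never passed in NCI-H660: PSMB5 (-0.00091 without shCtrl replicate 1), PSMB6 (-0.0042 with at least 10 counts in every library, -0.013 without shCtrl replicate 1, -0.0565 without shMYCL replicate 1, and up to 0.0724 without the other one) and PSMB7 (0.0639 without shCtrl replicate 2 and -0.134 without shCtrl replicate 1).

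The replicate numbers share no stated origin, and same-numbered libraries correlated by 0.016 in C4-2B and 0.027 in NCI-H660 over genes. With a replicate block 19 genes were called in C4-2B, 7 in NCI-H660, 6 for the difference between lines and 27 between the control lines. The number of libraries, 2 a group, limits the precision of every value.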
